A study of Mus musculus with 8 samples.

Results

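Macrophages clear dying cells with receptors that read phosphatidylserine on the corpse, either directly or through soluble bridging proteins. The 10 genes described here encode the TAM receptor tyrosine kinases (Mertk, Axl and Tyro3), their ligands Gas6 and protein S (Pros1), the phosphatidylserine receptors Tim-4 (Timd4) and Tim-3 (Havcr2), and the 3 chains of the complement protein C1q (C1qa, C1qb and C1qc). They were chosen by gene symbol, and all 10 were found among the 17823 genes of the deposited count table. They were compared between bone-marrow-derived macrophages positive and negative for tdT, a reporter of the cytokine gene Il19, in 4 libraries each, numbered 1 to 4 in both groups. All cells came from C57BL/6 bone marrow, were grown for 7 days with 20 ng of recombinant murine M-CSF and received 1 µg/ml of lipopolysaccharide (LPS), so no group without LPS is part of the comparison. How long LPS was given, how positive and negative cells were separated, the age of the mice and how the reporter allele was built are not stated in the labels.

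In this pathway Gas6 binds all TAM receptors and protein S binds Mertk and Tyro3, and both ligands link the receptor to phosphatidylserine. Mertk is the main TAM receptor of resting and anti-inflammatory macrophages, whereas Axl is induced by inflammatory signals, and both also dampen Toll-like receptor signalling. Tim-4 tethers corpses to resident macrophages, Tim-3 binds phosphatidylserine and galectin-9, and C1q, of which macrophages are a main source, coats dying cells.

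The libraries held 49850537 to 58516454 counts over genes, and Il19 had 7616 to 14306 counts in the tdT-positive and 546 to 943 in the tdT-negative libraries. In tdT-positive replicate 3, 12.3% of counts came from the ribosomal precursor Rn45s, against at most 0.734% elsewhere. Macrophage markers were abundant in every library, with a sum over 8 genes of 14281 to 18532 CPM (counts scaled to the depth of each library) in tdT-positive and 12066 to 21611 CPM in tdT-negative samples, led by Lyz2, the lysozyme gene, and none of the 8 passed. The tdT-negative libraries held more RNA of genes of other cells: the 8 stromal markers, led by Col1a1, summed to 199 to 2018 CPM against 48.2 to 121 CPM, with the highest value in tdT-negative replicate 4, and 7 of them fell in tdT-positive libraries with the replicate number in the model. This and the following counts come from that model, in which 7.81% of all genes fell. Without the replicate number, 1 monocyte marker and none of the stromal, neutrophil, osteoclast or dendritic cell markers passed. Of 7 neutrophil and granule markers, led by S100a9 in the tdT-negative group, 4 of 5 tested fell (14.4 to 274 against 3.18 to 6.81 CPM, with Prtn3 and Elane at 0 in all tdT-positive libraries). Prtn3 is 1 of these 4 and passed the expression filter only through the tdT-negative libraries, so its direction was fixed before the test. Of 5 monocyte markers, led by Chil3 in tdT-negative and by Ccr2 in tdT-positive libraries, 3 fell (29.1 to 166 against 8.35 to 10.6 CPM), and of 5 osteoclast markers, led by Acp5, 3 fell (76.9 to 1371 against 53.2 to 111 CPM). Among 6 dendritic cell markers Ccr7 was the most abundant and the only one tested, and it fell (list sums of 0.954 to 3.73 against 0.688 to 1.94 CPM). In such bulk libraries fewer cells of a type and less RNA per cell cannot be told apart.

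Levels between genes were compared per length, as CPM per kilobase of the deposited gene length (RPKM). The order C1qb, C1qc, C1qa, Axl was the same in all 8 libraries. C1qb averaged 520 and 554 RPKM in tdT-positive and tdT-negative libraries, C1qc 318 and 322, and C1qa 166 and 180. Axl followed at 28.4 and 36.5 RPKM and Mertk at 5.35 and 3.18 RPKM. Pros1 (2.32 and 2.57), Havcr2 (2.96 and 2.98) and Gas6 (2.38 and 2.47 RPKM) could not be ordered, since their ranges overlapped and their order changed between libraries. Timd4 and Tyro3 lay far below, at no more than 0.205 and 0.137 RPKM in any library, with 1 to 24 and 2 to 39 counts. The C1q genes were therefore the most abundant of the 10 in these LPS-treated macrophages, and Axl was the main TAM receptor transcript in both groups.

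With the group as the only term, none of the 10 genes passed (edgeR quasi-likelihood test, adjusted p under 0.05 over 12610 genes), where 0.0238% of all genes did. At an unadjusted p under 0.05, 2 of the 10 were below that value, Mertk and Tyro3, beside 16.3% of all genes, and the DESeq2 Wald test called these same genes while limma voom called none. Same-numbered libraries deviated together, and once the number entered the model as a block 3 of the 10 passed, beside 15.8% of all genes: Mertk rose, beside 8.03% of all genes, and Tyro3 and Timd4 fell, beside 7.81%. Tyro3 passed the expression filter only through the tdT-negative libraries, so its direction and its place in these counts are no support. Timd4 passed it mostly through those libraries. Of the 3, Mertk is the only gene above trace level, and without number 2 none of the 10 passed. The groups did not overlap for 1 of the 10, Tyro3, beside 11.4% of all genes (5.46% higher and 5.92% lower in tdT-positive libraries). The direction was the same in 4 of 4 numbers for 4 of the 10, a share close to the 41.5% of all genes, with Mertk higher (21.9% of all genes) and Axl, Tyro3 and Timd4 lower (19.6%). The median log2 fold change of the 10 was -0.08, beside 0.0051 over all genes tested in that fit. All folds are tdT positive over tdT negative.

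**Figure D1:**
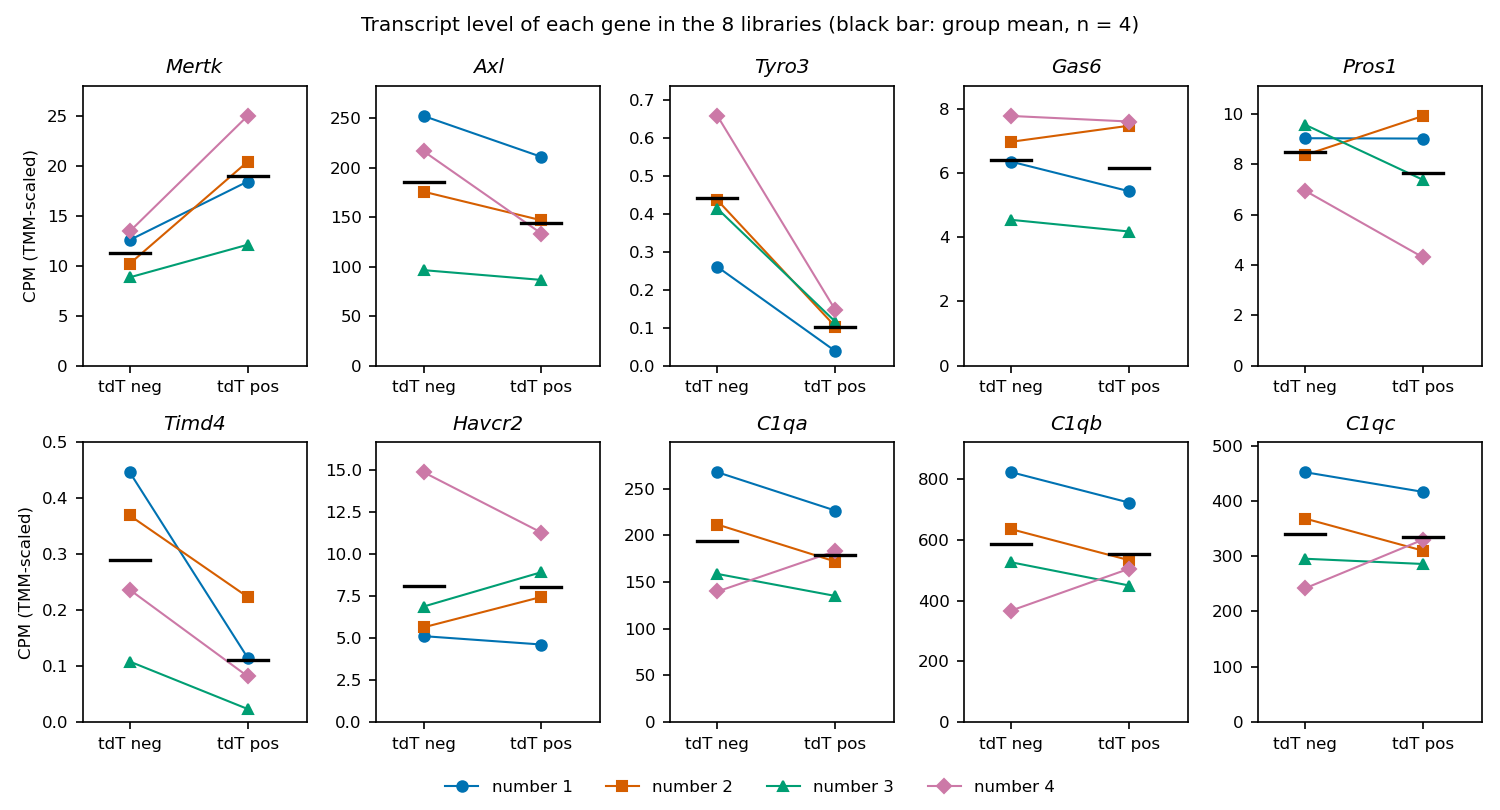
CPM of each of the 10 genes in the 8 libraries, each line joining the tdT-negative and tdT-positive library of a replicate number, with the group mean (n = 4) as a black bar and every axis starting at 0. In tdT-positive libraries Mertk is higher and Axl, Tyro3 and Timd4 are lower in 4 of 4 numbers, and the C1q genes are lower in numbers 1 to 3 and higher in number 4.

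Mertk, a receptor tyrosine kinase through which macrophages engulf corpses, was higher in tdT-positive cells. It was at 18.5, 20.5, 12.1 and 25.0 CPM in tdT-positive replicates 1 to 4, and at 12.6, 10.2, 8.86 and 13.5 CPM in the tdT-negative replicates of those numbers. It was higher in 4 of 4 numbers, by 1.47, 2.00, 1.37 and 1.86 times, but the groups overlapped, because tdT-positive replicate 3 lay below tdT-negative replicates 1 and 4. The means were 19.0 ± 5.36 and 11.3 ± 2.12 CPM (SD, n = 4). With the replicate block Mertk rose by 0.73 on the log2 scale (SE 0.11, 95% interval 0.48 to 0.98, edgeR adjusted p = 0.0109), and without the block the log2 fold change was 0.75 (SE 0.22, adjusted p = 0.140). Leaving out number 2 gave 0.63 (adjusted p = 0.0531), and the call held when number 1, 3 or 4 was left out instead.

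Axl was lower in tdT-positive libraries by a small amount that did not pass. Its values were 211, 147, 86.7 and 134 CPM in tdT-positive and 253, 176, 96.6 and 217 CPM in tdT-negative replicates 1 to 4. Differences between numbers were larger than that between the groups, and both libraries of number 3 were the lowest of their group. Axl was lower in 4 of 4 numbers, by 1.20, 1.20, 1.11 and 1.62 times, with means of 145 ± 51.3 and 185 ± 67.0 CPM (SD, n = 4). The log2 fold change was -0.34 with the block (SE 0.10, 95% interval -0.57 to -0.12, edgeR adjusted p = 0.0511) and -0.36 without it (adjusted p = 0.662). It passed with the block under upper-quartile factors (adjusted p = 0.0467), library totals (0.0473), no expression filter (0.0360), limma voom (0.0474) and DESeq2 (0.00700). Fibroblasts also transcribe Axl, and the largest difference, in number 4, came in the number whose tdT-negative library had 2018 CPM of stromal markers. The log2 fold change was -0.21 without number 4 (adjusted p = 0.0504). The part of stromal RNA in this difference was not tested.

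Since both are read in the same library, the ratio of Axl to Mertk per length does not depend on scaling between libraries. It was 7.99, 5.02, 5.0 and 3.73 in tdT-positive and 14.0, 12, 7.62 and 11.3 in tdT-negative replicates 1 to 4. The ratio was lower in the tdT-positive library of every number, and the groups overlapped only through tdT-positive replicate 1 and tdT-negative replicate 3. Mertk made up 16.4 ± 4.10% of the summed TAM receptor RPKM in tdT-positive and 8.50 ± 2.13% in tdT-negative libraries (SD, n = 4). No test was made of this ratio, which was formed after the values of both genes were known.

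**Figure D2:**
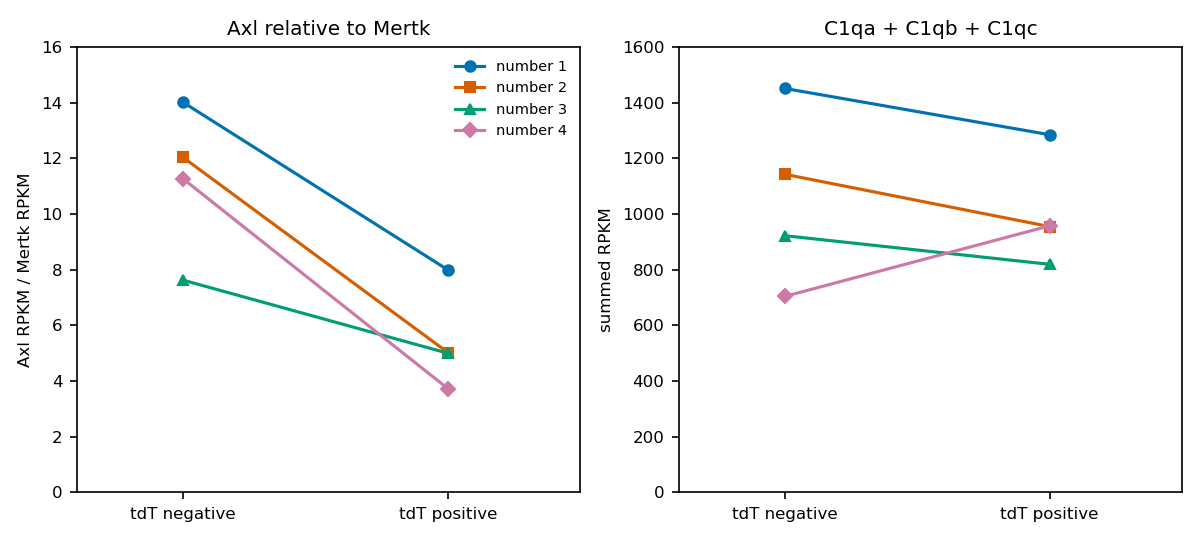
Left, the ratio of Axl to Mertk in RPKM, and right, the summed RPKM of C1qa, C1qb and C1qc, in the tdT-negative and tdT-positive library of each replicate number. The ratio lies between 7.62 and 14.0 in tdT-negative and between 3.73 and 7.99 in tdT-positive libraries, while the C1q sum is lower in the tdT-positive library of numbers 1 to 3 and higher in that of number 4.

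Tyro3, the TAM receptor best known from neurons, was at trace level in both groups. It had 2, 6, 5 and 9 counts in tdT-positive replicates 1 to 4 and 14, 26, 23 and 39 in the tdT-negative ones, or 0.101 ± 0.0457 and 0.443 ± 0.164 CPM. The groups did not overlap, but Tyro3 passed the expression filter only through the tdT-negative libraries. Its direction, its lack of overlap and the calls given here are therefore no support. Tyro3 fell by 2.12 on the log2 scale with the block (SE 0.31, edgeR adjusted p = 0.0106) and had a log2 fold change of -2.10 without it (adjusted p = 0.0626). Its highest value, 0.659 CPM, and the highest stromal and osteoclast sums, 2018 and 1371 CPM, were in the same library, tdT-negative replicate 4, and the log2 fold change was -2.09 without number 4 (adjusted p = 0.0141). Without number 2 Tyro3 no longer passed (adjusted p = 0.0531). The part of other cell types in this result was not tested.

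The stretches upstream of Mertk and Axl, the TAM receptors present above trace level, are shown because their values differed in opposite directions in every number. They are the 250 bases before the RefSeq start (GRCm38.p6), 5′ to 3′ on the strand of the gene, with matches on either strand to TGCTGA, a core of the Maf recognition element, to GAGGAA, a core of PU.1 sites, and to AGGTCA or GGGTCA, core sites of nuclear receptors, in capitals.
Mertk, chr2:128698665-128698914, plus strand: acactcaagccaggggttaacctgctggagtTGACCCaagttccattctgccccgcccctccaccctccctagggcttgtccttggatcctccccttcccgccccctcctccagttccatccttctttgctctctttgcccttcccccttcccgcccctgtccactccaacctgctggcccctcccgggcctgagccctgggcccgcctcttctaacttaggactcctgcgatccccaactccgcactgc
Axl, chr7:25788734-25788983, minus strand: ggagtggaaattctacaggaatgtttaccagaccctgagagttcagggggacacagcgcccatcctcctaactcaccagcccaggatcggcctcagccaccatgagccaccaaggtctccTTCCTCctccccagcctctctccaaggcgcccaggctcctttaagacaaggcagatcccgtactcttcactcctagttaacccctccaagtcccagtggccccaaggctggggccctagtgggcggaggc
Mertk held 1 GGGTCA on the opposite strand, 219 bases before the start, and Axl held 1 GAGGAA on the opposite strand, 130 bases before it. Of 32841 promoter windows of this length, 11.6% held GGGTCA and 23.3% GAGGAA, so each match is common, and a match is a description of letters only. Mertk spans chromosome 2, 128698956 to 128802894, Axl chromosome 7, 25757273 to 25788705, and Tyro3 chromosome 2, 119797733 to 119818104 (GENCODE M21, GRCm38).

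The genes of the TAM ligands were transcribed at low, similar levels in both groups. Gas6 was at 5.43, 7.47, 4.17 and 7.60 CPM in tdT-positive and 6.35, 6.97, 4.54 and 7.77 CPM in tdT-negative replicates 1 to 4. Its log2 fold change was -0.07 with the block (95% interval -0.30 to 0.16, edgeR adjusted p = 0.673), and its level followed the replicate number, with both libraries of number 3 the lowest. Pros1 was at 9.01, 9.91, 7.37 and 4.30 CPM against 9.03, 8.36, 9.56 and 6.94 CPM, with a log2 fold change of -0.20 (95% interval -0.56 to 0.16, adjusted p = 0.412). The groups overlapped for both ligands, and tdT-positive replicate 4 held the least Pros1. With these intervals a decrease of 0.30 for Gas6 or 0.56 for Pros1 on the log2 scale could not be told from none. Gas6 (chromosome 8, 13465374 to 13494490) shares 34 exonic bases with Tmem255b on the opposite strand, and reads there could have been counted for either gene.

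Of the TIM receptors, Havcr2 was clearly present and did not pass, and Timd4 was near the limit of detection. Havcr2 (Tim-3) was at 4.60, 7.43, 8.91 and 11.3 CPM in tdT-positive and 5.10, 5.63, 6.86 and 14.8 CPM in tdT-negative replicates 1 to 4, higher in the tdT-positive library of 2 numbers and lower in that of the other 2. Its log2 fold change was 0.05 with the block (95% interval -0.30 to 0.41, edgeR adjusted p = 0.832), and in both groups number 4 held the highest level. Timd4 (Tim-4), the receptor of resident macrophages, had 6, 13, 1 and 5 counts against 24, 22, 6 and 14. It reached 10 counts in tdT-negative replicates 1, 2 and 4 and in tdT-positive replicate 2 only. Timd4 thus passed the expression filter mostly through the tdT-negative libraries, which limits what its direction and call show. It was lower in 4 of 4 numbers with overlapping groups (0.111 ± 0.0842 and 0.290 ± 0.149 CPM). Timd4 fell by 1.40 on the log2 scale with the block (SE 0.38, adjusted p = 0.0473), and had a log2 fold change of -1.33 without it (adjusted p = 0.327). The call was lost without number 1, 3 or 4 (adjusted p = 0.186, 0.102 and 0.0774), and also under library totals (0.0521), no expression filter (0.0655) and DESeq2 (0.160). Without number 2 the gene was below the filter.

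**Figure D3:**
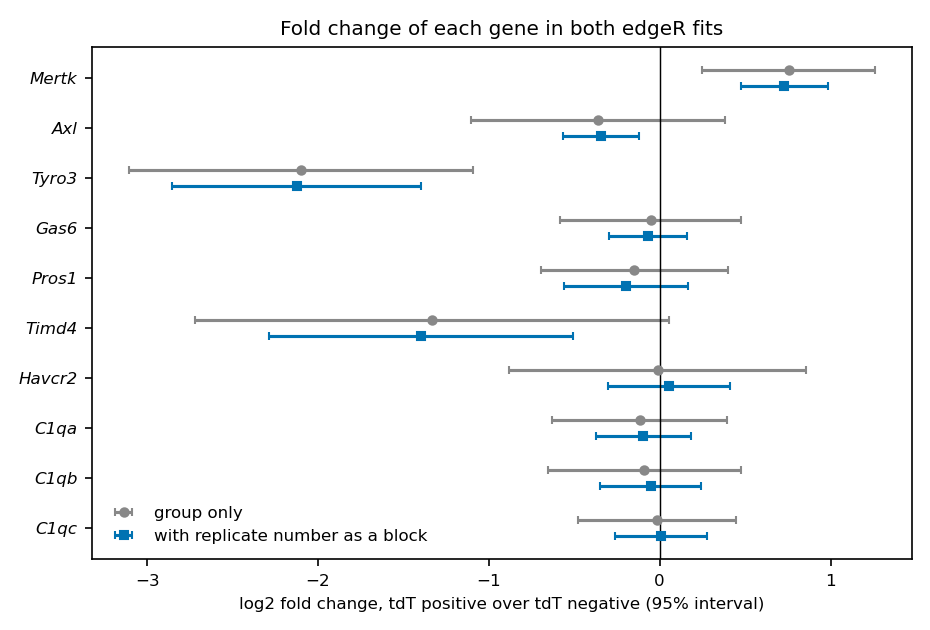
Log2 fold change of each gene, tdT positive over tdT negative, with its 95% interval, from the edgeR fit with the group only (grey) and with the replicate number as a block (blue). Intervals with the block are narrower, and those of Mertk, Axl, Tyro3 and Timd4 exclude 0, although the adjusted p of Axl was 0.0511.

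C1q transcripts were abundant, and any difference between the groups was within the replicate spread. The 3 genes lie side by side on the minus strand of chromosome 4, C1qb at 136880129 to 136886187, C1qc at 136889804 to 136893065 and C1qa at 136895917 to 136898803, and each encodes a chain of the same hexamer. C1qb was at 723, 533, 450 and 505 CPM in tdT-positive and 823, 635, 526 and 367 CPM in tdT-negative replicates 1 to 4. C1qc was at 416, 310, 286 and 330 against 452, 368, 295 and 242 CPM, and C1qa at 226, 172, 135 and 183 against 268, 212, 159 and 140 CPM. All 3 were lower in the tdT-positive library of numbers 1, 2 and 3 and higher in that of number 4. For C1qb and C1qc both the highest and the lowest of the 8 libraries were tdT negative, in replicates 1 and 4, and for C1qa the lowest was tdT-positive replicate 3. With the block the log2 fold changes were -0.05 for C1qb (95% interval -0.35 to 0.24, edgeR adjusted p = 0.801), 0.0079 for C1qc (-0.26 to 0.28, 0.968) and -0.10 for C1qa (-0.37 to 0.18, 0.611).

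Number 4 went against the other numbers. The tdT-positive library had 1.38 times as much C1qb, 1.36 times as much C1qc and 1.31 times as much C1qa as the tdT-negative library in number 4, whereas in numbers 1 to 3 the ratios lay between 0.812 and 0.968. Without number 4, C1qa fell by 0.24 on the log2 scale (SE 0.06, edgeR adjusted p = 0.0302), and C1qb (-0.21, adjusted p = 0.0630) and C1qc (-0.13, adjusted p = 0.253) did not pass. tdT-negative replicate 4 was also the library with the fewest macrophage marker counts (12066 CPM) and the highest stromal and osteoclast sums, and their part in the low C1q level there was not tested.

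The mean proportions of the C1q chains differed between groups by less than 1 SD, a comparison that leaves out the pairing by number. Of their summed RPKM, C1qb made up 51.7 ± 1.48% in tdT-positive and 52.1 ± 2.12% in tdT-negative libraries, C1qc 31.8 ± 1.24% and 30.8 ± 1.29%, and C1qa 16.5 ± 1.00% and 17.1 ± 1.00% (SD, n = 4). Within every number, however, the tdT-positive library had the lower C1qa share and the higher C1qc share. Its C1qb share was lower in numbers 1 and 3 and higher in numbers 2 and 4. Differences in these shares were not tested. The summed C1q level ranged from 704 to 1451 RPKM over the 8 libraries. Among 9193 tested genes whose log2 CPM averaged 2 or more, Ms4a4c and Gk followed the mean log2 CPM of the C1q genes most closely (Pearson r = 0.97 for both), and Lrp4 and Olfml3 followed Axl (0.96 for both). These are the highest of many correlations over 8 libraries that pair by number, and are given as descriptions only.

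The upstream stretches of C1qb and C1qc are shown because these genes varied together. For C1qc only the part outside annotated exons is given. Capitals mark the same motifs as above.
C1qb, chr4:136886201-136886450, minus strand: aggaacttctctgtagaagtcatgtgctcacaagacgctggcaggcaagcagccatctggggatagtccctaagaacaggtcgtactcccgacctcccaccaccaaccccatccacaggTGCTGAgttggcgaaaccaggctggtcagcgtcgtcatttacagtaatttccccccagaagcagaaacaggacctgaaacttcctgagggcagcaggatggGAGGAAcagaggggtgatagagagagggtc
C1qc, chr4:136893066-136893164, minus strand: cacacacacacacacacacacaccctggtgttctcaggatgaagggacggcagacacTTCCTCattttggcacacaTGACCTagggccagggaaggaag
C1qb held 1 TGCTGA on its own strand, 131 bases before the RefSeq start, and 1 GAGGAA, 30 bases before it, and C1qc held GAGGAA and AGGTCA on the opposite strand, 193 and 174 bases before its start. Over all windows 16.1% held TGCTGA, 23.3% GAGGAA and 14.0% AGGTCA, and among the 9 genes of the set with a window 2 held TGCTGA (C1qb and Timd4), 4 GAGGAA and 3 AGGTCA.

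Around these genes, the wider uptake machinery was followed with 8 lists of other receptors, bridges, signalling and digestion genes. Of 97 such genes tested, 16 rose and 7 fell with the replicate block, or 23 in all, beside 15.8% of all genes, and none passed without it (edgeR, adjusted p under 0.05). Their median log2 fold change was 0.08, beside 0.0051 over all genes. Of the 23, 3 still passed without number 2, Mrc1 and Ppard among them, and these 3 passed whichever number was left out. Over all genes of the lists, 9, 3, 5 and 27 passed without numbers 1, 2, 3 and 4, and the 27 include 20 of the 23. Scaled by library totals, 8 rose and 10 fell in place of 16 and 7.

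Of 9 tested C1q partners 4 rose and none fell, beside 8.03% and 7.81% of all genes, with a median of 0.15. Genes higher in tdT-positive libraries with no overlap between groups were 5.46% of all genes. Cd93, first described as a C1q receptor, was at 64.8 and 48.1 CPM (tdT positive and tdT negative, the order used from here on) and rose by 0.43 on the log2 scale, with no overlap between groups (SE 0.09, edgeR adjusted p = 0.0193). Lrp1, which takes up calreticulin-bound corpses, rose by 0.43 (1603 and 1214 CPM), and Maf, a transcription factor of macrophages, by 0.29 (376 and 311 CPM). Maf did not pass whichever number was left out (lowest edgeR adjusted p = 0.0522), nor under upper-quartile factors (0.0562) or library totals (0.0783).

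Of 19 other apoptotic cell receptors tested, 3 rose and 1 fell, beside 8.03% and 7.81% of all genes, with a median of 0.17. Mrc1, the mannose receptor, was at 45.2 and 24.7 CPM and rose by 0.89 (SE 0.06, edgeR adjusted p = 0.00303). Stab1, a phosphatidylserine receptor, rose by 0.44 (679 and 503 CPM) with no overlap between groups, beside 5.46% of all genes. Scarf1, a scavenger receptor that binds C1q, rose by 0.32. Itgb3, the beta chain of the vitronectin receptor that binds Mfge8-coated corpses, fell by 2.49 (0.943 and 8.58 CPM). Itgb3 is also a gene of osteoclasts, and its level was 25.8 CPM in tdT-negative replicate 4 against at most 3.73 CPM in the others. Without number 4 Itgb3 fell by 1.79 (adjusted p = 0.0033), and the part of osteoclast RNA was not tested.

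Of 9 other bridging proteins tested, 1 rose and 3 fell, beside 8.03% and 7.81% of all genes, with a median of -0.18. Mfge8, the bridge between phosphatidylserine and integrins, fell by 0.56 (18.9 and 28.4 CPM, edgeR adjusted p = 0.0461). Its highest level, 39.0 CPM, was in tdT-negative replicate 4, and without number 4 it fell by 0.37. Mfge8 did not pass without number 2 or 3 (adjusted p = 0.129 and 0.172), nor under DESeq2 size factors (0.0505) or library totals (0.0632). Anxa1 fell by 0.37 and the complement gene C3 by 0.28. Ptx3, a pentraxin that binds C1q and dying cells, rose by 0.79 from a low level (4.31 and 2.46 CPM).

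Of 12 find-me and do-not-eat-me genes, 2 rose and 1 fell, beside 8.03% and 7.81% of all genes. Panx1, the channel that releases nucleotides from dying cells, rose by 0.44, P2ry2, a nucleotide receptor, by 0.33, and Cd24a fell by 0.91. P2ry2 did not pass whichever number was left out (lowest edgeR adjusted p = 0.0591). It also did not pass under DESeq2 size factors (0.0508), upper-quartile factors (0.0582) or library totals (0.0569). Vav3 and Trio, exchange factors for small GTPases, rose by 0.34 and 0.36 among 15 engulfment signalling genes. Lipa, the lysosomal lipase, rose by 0.27 among 18 digestion and lipid efflux genes, and 8.03% of all genes rose. Of 8 nuclear receptors of uptake genes, Ppard (0.49), Rxra (0.37) and Nr3c1 (0.29) rose, beside 8.03% of all genes. Rxra had no overlap between groups, beside 5.46% of all genes. Nr1h3, which encodes LXR alpha, fell by 0.23 (63.1 and 74.4 CPM), beside 7.81% of all genes. The remaining 4, among them Nr1h2 (LXR beta, 83.6 and 79.0 CPM) and Rxrb (26.4 and 26.9 CPM), named after their values were seen, did not pass.

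**Figure D4:**
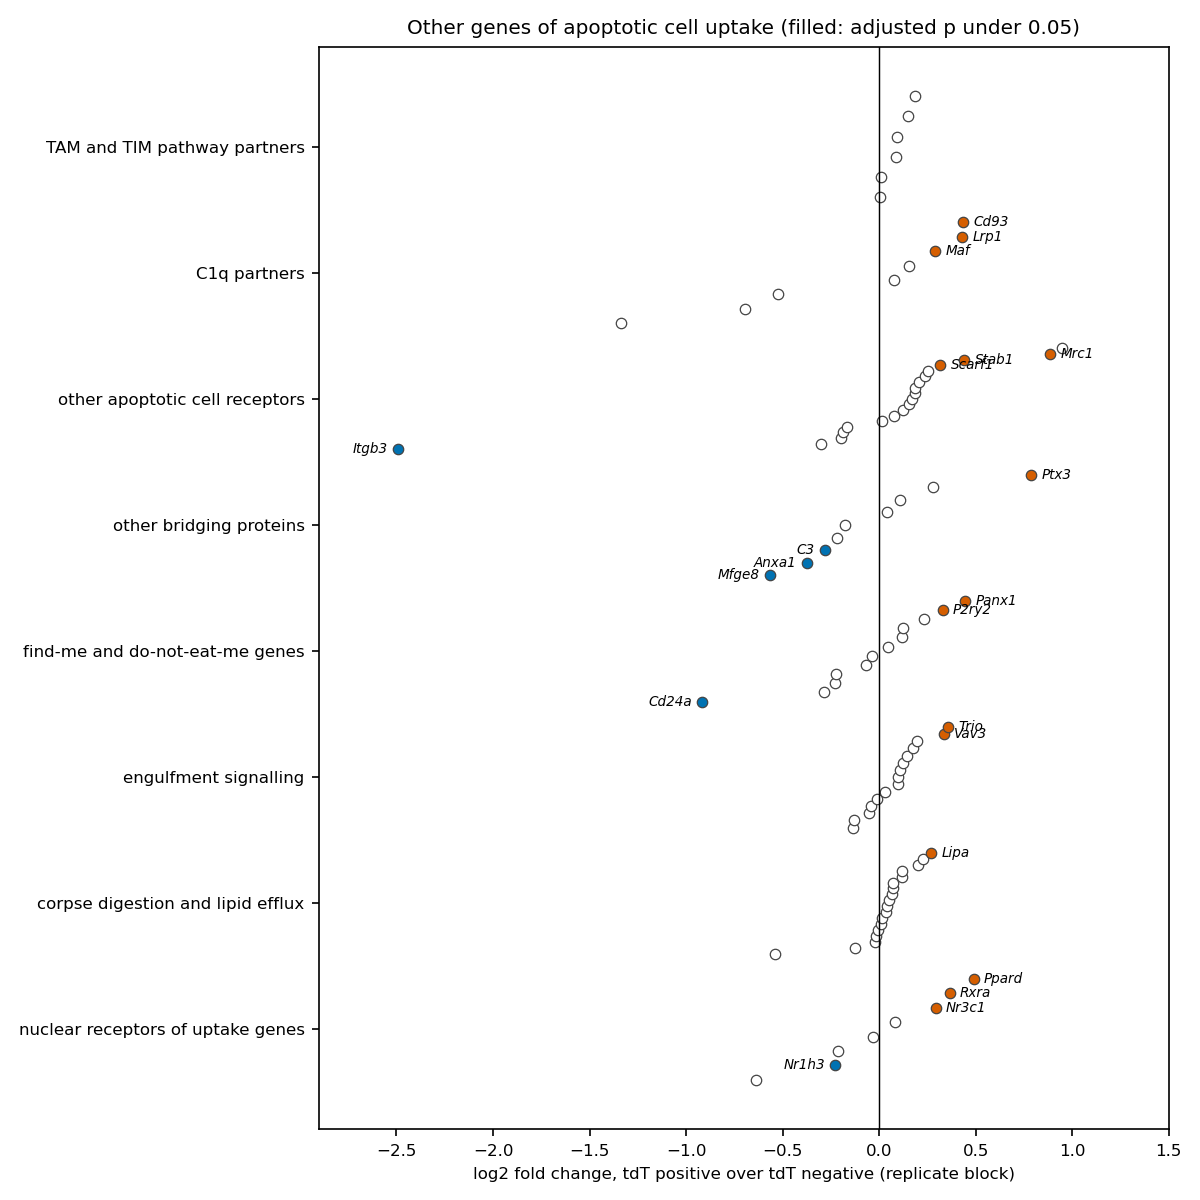
Log2 fold change with the replicate block, tdT positive over tdT negative, of tested genes of 8 lists of uptake genes, 1 point a gene, filled and named where the adjusted p was under 0.05. Named genes lie to the right in 15 cases and to the left in 6, with most bridging proteins that passed on the left.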

How the data were processed

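Polyadenylated RNA of 4 tdT-positive and 4 tdT-negative macrophage samples was sequenced from stranded libraries of 220 ng of total RNA. Values are raw counts of reads per gene, deposited by the authors after alignment with STAR to mm10 per the submitters' processing notes. For counting, the tool, annotation and strand setting were not named in the sources used. The table also gives a gene length, deposited by the authors in bases as an other value beside the counts, which was used for RPKM. Each column was tied to its sample through the identifier in the description, and groups come from titles. The labels call the samples biological replicates and do not say whether they came from separate mice, so the p-values reflect only how these samples vary.

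Genes were filtered by the default of edgeR 4.0.16 (minimum count 10, minimum total 15), leaving 12610 and all 10 genes of the set. Counts were scaled by TMM and compared with the edgeR quasi-likelihood test, adjusted by Benjamini-Hochberg over all genes at 0.05, with the group as the only term. The replicate number as a block was an alternative, as were DESeq2 1.42.0, limma 3.58.1 (voom), other scalings, filters and thresholds, and leaving out libraries or numbers. Standard errors are the log2 fold change over the square root of its F statistic, and intervals use the moderated degrees of freedom. Deviations from group means correlated by 0.63, 0.28, 0.62 and 0.56 between libraries of numbers 1 to 4, all above 0.1, and this pairing comes from the data, so blocked values are printed where they change a call. The scripts were tested on simulated data. The genes, lists, naming rule and motifs were chosen with earlier results of these data known. The naming rule takes all genes of the set, up to 4 genes of each list that passed, the most abundant marker of each cell type, and the 2 genes most correlated with Axl and with C1q. Sequences are from RefSeq tables of GRCm38.p6, in which 9 of the 10 genes were matched. C1qa is not among them. Some genes of the wider lists that passed are counted but not reported by name.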

Additional observations from a re-analysis of the deposited data

How the results depend on the processing

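Of the settings tried, Mertk stayed higher and Axl, Tyro3 and Timd4 stayed lower in tdT-positive libraries in every one that gave a value. Tyro3 passed the default filter only through the tdT-negative libraries, so its direction under that filter is no support. Timd4 passed that filter mostly through the same libraries. Timd4 gave none without number 2 in the fit with the block, nor Timd4 and Tyro3 under a filter of 1 CPM in 4 libraries. With the group only, 3 genes of the whole table passed, against 216 without a filter, 921 with DESeq2, 524 at an adjusted p under 0.1 and 2 to 456 when single libraries were left out (456 without tdT-negative replicate 1 and 225 without replicate 4). Of the 10 genes, 2 passed with DESeq2, 1 at an adjusted p under 0.1 and 0 to 1 with a library left out (Tyro3 without tdT-negative replicate 1).

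The replicate block raised the genes called to 1998 and those of the set to 3, and these numbers depended on which number was left out: 1023, 347, 355 and 2535 genes, 2, 0, 2 and 3 of the set, and 9, 3, 5 and 27 of the wider lists without numbers 1 to 4. At adjusted p under 0.01 and 0.1 the block gave 234 and 3182 genes, 0 and 4 of the set, and 3 and 35 of the lists, and 1 of the set passed under the 1 CPM filter. With the block and library totals, 29.8% of called genes were higher, against 50.7%.

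Small fold changes changed sign. With the group only and single libraries left out, Gas6 ranged from -0.19 to 0.10, Pros1 from -0.29 to 0.049, Havcr2 from -0.23 to 0.45, C1qa from -0.25 to 0.080, C1qb from -0.26 to 0.12 and C1qc from -0.15 to 0.16. Havcr2 was 0.0053 without a filter, 0.056 with voom and 0.054 with the block, and C1qc 0.0039 with voom and 0.0079 with the block. With the block, Havcr2 was -0.025 under library totals and -0.072 and -0.062 without numbers 2 and 3, C1qb was 0.0048 without number 2, and C1qc was -0.027 under upper-quartile factors, -0.070 under library totals, -0.0024 under the 1 CPM filter and -0.13 without number 4. The cause was not tested. Depth limits Tyro3 and Timd4, where 3 counts correspond to 0.0490 to 0.0696 CPM.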
